A study of Apis mellifera with 36 samples.

Results

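The second day of development was examined in female embryos of the honeybee Apis mellifera, by comparing embryos taken 48 h after egg laying (AEL) with embryos taken 24 h AEL. The members were chosen by their labels as worker embryos of these times, which gave 12 of the 36 embryos of the study. Each library was made from a single embryo, and 6 embryos stood at 48 h and 6 at 24 h, with 3 from each of 2 mated queens at each time. Worker embryos are the diploid females that develop from fertilized eggs, while drones are males from unfertilized eggs. The whole study sampled both sexes of the same queens at 24, 48 and 72 h AEL by RNA sequencing of amplified cDNA. Each queen was also a batch of its own in the labels, so that queen and batch cannot be told apart. Eggs were laid within 2 h according to the labels and within 3 h according to the methods, so that embryos of the same nominal time can differ in age by that much. Nothing states that the 3 embryos of a queen and time came from separate layings, and p-values measure the spread between these embryos.

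At the start of development an insect embryo lives on RNA and protein that its mother placed in the egg. In the maternal-to-zygotic transition these maternal transcripts are repressed, stripped of their poly(A) tails, decapped and degraded, while the embryo's own genome begins to be transcribed. Early zygotic transcripts in insects are rich in transcription factors that divide the embryo into segments and germ layers, and cells then take on fates, stick together and secrete a cuticle. The roles given below are known from the fruit fly Drosophila melanogaster or from conserved biochemistry unless stated otherwise, and are background rather than results.

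Counts per library ran from 5503556 to 7944906 at 48 h and from 7122090 to 12566958 at 24 h, so that the medians were 5614939 and 10330614 and the ranges overlapped. The 10 most abundant genes took a median of 19.45% of the counts at 48 h and 16.15% at 24 h. At least 10 counts were found for 8441 to 8808 genes at 48 h and for 7848 to 8237 at 24 h. Levels are given as CPM, counts scaled to a common library size with factors from the trimmed mean of M-values (TMM), so that they are shares of a library and not amounts per embryo. In whole embryos, fewer cells of a type and less RNA per cell cannot be told apart. Among 36 genes of adult or larval glands and fat body, 9 never passed 3 counts, and melittin, apamin, secapin and vitellogenin had at most 2 counts in any of the 12 libraries. Other members of the list were detected. The venom acid phosphatase gene Acph-1 had 471, 652 and 710 CPM at 48 h and 9.59, 11.4 and 13.6 CPM at 24 h. The hexamerin genes Hex70a and Hex110 and the royal jelly gene Mrjp1 were called higher too. The summed RPKM of that list, the deposited values that correct counts for gene length and library size, lay between 222 and 290 at 48 h and between 235 and 344 at 24 h, while 6 of its 18 tested members were called higher and 9 lower. Acph-1 alone had 141 to 210 RPKM at 48 h. Among the lower members, the venom protein 2 gene LOC503505 had 87 to 121 RPKM at 24 h and 10.7 to 17.4 RPKM at 48 h. LOC726703, a venom acid phosphatase-like gene, had 45.5 to 75.25 RPKM at 24 h and 4.96 to 15.28 RPKM at 48 h.

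Of 12365 genes in the table, 8799 had enough counts to be tested. At 48 h against 24 h, 2685 genes were higher (30.5%) and 2360 lower (26.8%), so that 57.3% of the tested genes were called. A call required an adjusted p-value below 0.05 together with a change of more than 1 on the log2 scale, in either direction. All tests of this step used edgeR's quasi-likelihood test with Benjamini-Hochberg adjustment over all tested genes and with queen as a term. Each queen alone also called 2422 of the higher and 2141 of the lower genes, and no gene was called in opposite directions by the 2 queens. In 3290 genes (37.4%) all 6 embryos of 48 h lay above all 6 of 24 h, and in 2952 genes (33.5%) all lay below. The higher genes had a median log2 fold change of 2.43 and the lower genes one of -2.11, against 0.08 over all tested genes. Past 8-fold, which is 3 on the log2 scale, stood 1096 higher and 700 lower genes.

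**Figure D1:**
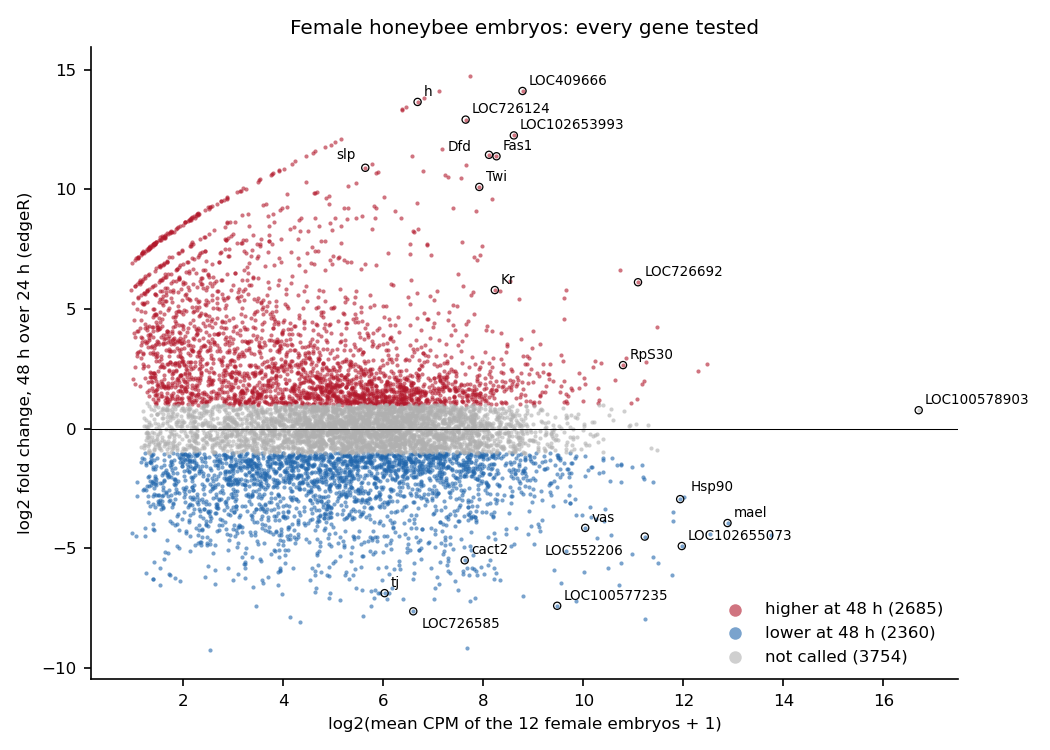
Log2 fold change of 48 h over 24 h female embryos (vertical axis) against log2 of the mean CPM of the 12 embryos plus 1 (horizontal axis) for each of the 8799 tested genes, with higher genes in red, lower genes in blue and genes not called in grey. The highest point is the zinc finger gene LOC100578920 at 14.75, which had no counts at 24 h, while LOC552206, mael and LOC102655073 mark abundant transcripts that fell.

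The largest bounds belonged to genes that were readily detected at 48 h and silent at 24 h. A gene was counted as switched on when it had at least 10 CPM in each embryo of 48 h and at most 3 counts in each embryo of 24 h, and 87 genes met this rule. Of these, 68 were protein-coding, 15 of them with no described product, and 19 were long noncoding RNA (lncRNA) genes. The lists of patterning genes, transcription factors and nuclear receptors described below held 12 of the 87, a number that includes the ecdysteroid enzyme gene CYP18A1. Examples outside the lists of regulators are Syt7, a synaptotagmin of vesicle release, at a bound of 218-fold, Scp2, a calcium-binding protein of muscle, at 116-fold, and the alkaline phosphatase gene LOC410393 at 190-fold. The LIM homeobox gene ap (apterous) and the forkhead gene croc (crocodile) stood at bounds of 113-fold and 40.3-fold. The opposite rule, for genes switched off, found 6 genes, of which 5 were lncRNA genes. The protein-coding gene among them was LOC410866, which encodes a LIM domain only protein 3-like cofactor of transcription and was at least 35.7-fold lower at 48 h. Folds against silent embryos are lower bounds here, computed against a floor of 3 counts per library, which averaged 0.333 CPM at 24 h and 0.469 CPM at 48 h.

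Tested pair-rule and segment-polarity genes, which set the repeated stripes of the segmented body, were mostly called higher. Of 23 such genes 17 were tested, and 11 were higher (64.7%) and 2 lower (11.8%), beside 30.5% and 26.8% of all tested genes. Their median log2 fold change was 3.81. Members silent at 24 h entered the test through their 48 h counts, so that these shares and the median hold for tested members only. The 6 untested members, among them Wnt1, the hedgehog-like gene LOC726929 and both gooseberry-like genes, had at most 12 counts in any embryo.

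The primary pair-rule gene h (hairy, linkage group 13, 7060583 to 7064051), a repressor of the basic helix-loop-helix (bHLH) class, had 153, 210 and 247 CPM as lowest, median and highest value at 48 h, and 0 counts in every embryo at 24 h. It was at least 612-fold higher at 48 h (edgeR adjusted p = 5.4e-14). The odd-skipped-like gene LOC725053 (linkage group 13, 8925524 to 8928755), a zinc finger factor, had 126, 162 and 219 CPM at 48 h and 0 counts at 24 h, a difference of at least 489-fold. Both genes were thus silent at this depth in all 6 younger embryos and present in all 6 older ones. LOC726124 (linkage group 14, 7853875 to 7858279), a run-like transcription factor, reached 221, 394 and 596 CPM at 48 h and 0, 0 and 0.198 CPM at 24 h, which is at least 1197-fold. Among the genes that act after the primary stripes, slp, a sloppy paired-like forkhead factor, had between 64.7 and 112 CPM at 48 h and between 0 and 0.298 CPM at 24 h, at least 293-fold higher. Prd (paired) had 28.9, 58.8 and 85.9 CPM at 48 h and 0, 0.0447 and 0.137 CPM at 24 h, at least 175-fold higher. The groups were apart in all of these genes.

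The pair-rule gene eve (even-skipped, linkage group 14, 704984 to 710615) differed from them in being present already at the earlier time. Whether its RNA at 24 h was maternal or zygotic was not tested. It had 190, 213 and 291 CPM at 48 h and 120, 141 and 177 CPM at 24 h. The groups did not overlap, but the log2 fold change of 0.67 ± 0.10 (SE) stayed under the threshold of 1 (edgeR adjusted p = 4.5e-06). The segment-polarity gene En (engrailed) was still low at 48 h with a median of 3.37 CPM, against 0 counts in every embryo of 24 h, and was called higher. In the hedgehog pathway, the transcription factor Ci (cubitus interruptus) rose to a median of 3.19 CPM at 48 h, against 0.192 CPM at 24 h, a log2 fold change of 3.81. The hedgehog receptor gene LOC100576449 (patched-like) rose by 1.66 on the log2 scale, with medians of 134 CPM at 48 h and 41.6 CPM at 24 h. The ligand-like gene LOC102655561 (sonic hedgehog protein-like) was called lower at -1.26, but at 0.638, 1.03 and 5.67 CPM at 48 h and 2.42, 4.28 and 4.8 CPM at 24 h its groups overlapped. A partner gene lies on the opposite strand within h, LOC726124, En, Ci, Twi, gt, cad, Ubx, lab, Dl-2, the dorsal gene and sog. Whether the counting used strand is not given in the sources used here, so that their values may include reads of the partner.

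**Figure D2:**
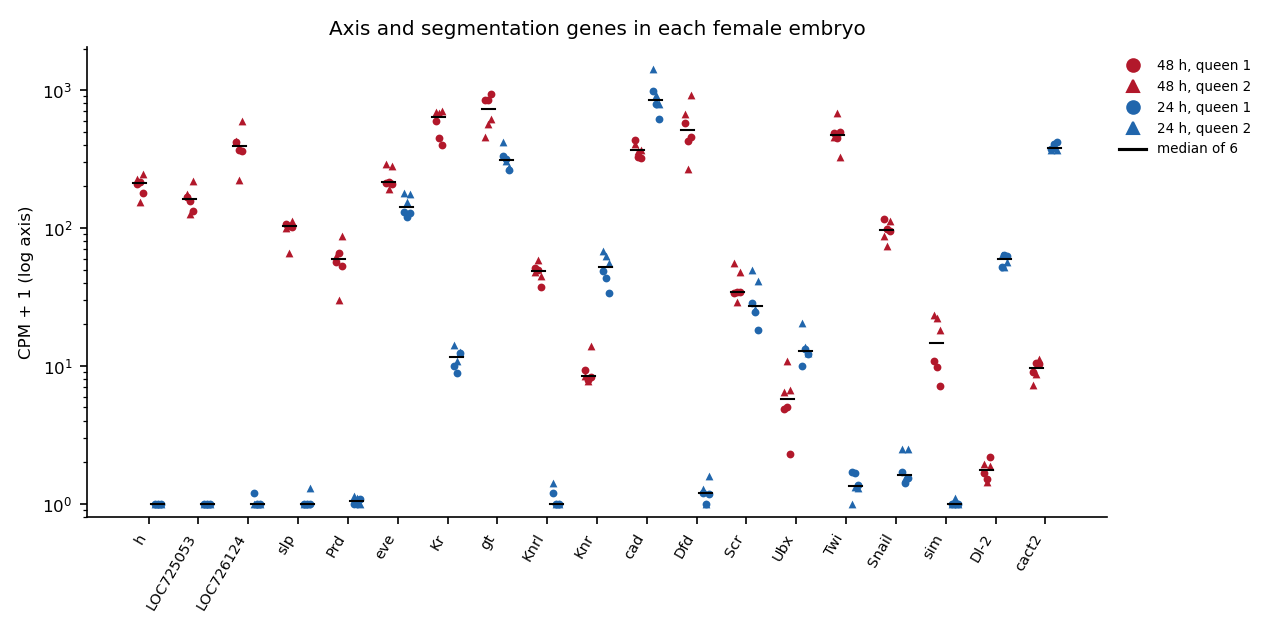
CPM plus 1 on a log axis in each of the 12 female embryos for 19 axis and segmentation genes, with 48 h in red to the left of 24 h in blue, circles for queen 1, triangles for queen 2 and a black bar at the median of 6 embryos. The genes h, LOC725053, LOC726124, slp, Prd, Dfd, Twi and sim sit near the bottom of the axis at 24 h and between 6.19 and 918 CPM at 48 h, eve and gt lie above 100 CPM at both times, and Knr, cad, Dl-2 and cact2 lie lower at 48 h.

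The gap and other anterior-posterior factors, which divide the egg into broad regions before the stripes form, split evenly, with 4 of 10 tested genes higher and 4 lower (median 0.09). Kr (Krueppel), a zinc finger repressor of the central region, had 398, 639 and 708 CPM at 48 h and 7.84, 10.6 and 13.2 CPM at 24 h. It rose by 5.80 ± 0.14 (SE) on the log2 scale (edgeR adjusted p = 6.2e-17), with every older embryo far above every younger one. The nuclear receptor gene Knrl (knirps-like) had 36.3, 47.9 and 58 CPM at 48 h and 0, 0 and 0.411 CPM at 24 h, at least 142-fold higher. Its relative Knr (knirps) went the other way, with 6.71, 7.38 and 13 CPM at 48 h and 32.7, 51.2 and 66.6 CPM at 24 h, a log2 fold change of -2.60 ± 0.16 (SE). The 2 knirps genes therefore moved in opposite directions with no overlap of the groups in either.

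The basic leucine zipper gene gt (giant) was abundant at both times, with 458, 730 and 929 CPM at 48 h and 263, 309 and 423 CPM at 24 h, and rose by 1.12 ± 0.15 (SE). In queen 2 alone that rise was 0.70 and was not called. The homeobox gene cad (caudal), whose maternal product specifies posterior fates, fell to 322, 365 and 435 CPM at 48 h, against 613, 854 and 1427 CPM at 24 h, a log2 fold change of -1.30 ± 0.15 (SE). For the head genes, the homeobox protein OTX-like gene LOC724297 rose by 3.14 ± 0.20 (SE), while otd1 (orthodenticle 1), a maternal anterior factor in the wasp Nasonia vitripennis, was called lower at -1.01 with overlapping groups. The call of otd1 rested on the threshold, since under 8 alternatives its value came closer to 0 than -1. Hb (hunchback) and Tll (tailless) had medians of 2.7 and 2.6 CPM at 48 h and 2.9 and 2.91 CPM at 24 h, and neither was called.

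Of the Hox genes, which give segments along the body their identity, 5 of 7 were tested and Dfd (Deformed, linkage group 16, 2438219 to 2448876) was the one that rose. This head gene had 267, 514 and 918 CPM at 48 h and 0, 0.189 and 0.596 CPM at 24 h, a log2 fold change of 11.45 ± 0.41 (SE; edgeR adjusted p = 9.7e-15). Its neighbour Scr (Sex combs reduced), a gene of the labial and first thoracic segments, had 28, 33.1 and 54.7 CPM at 48 h and 17.2, 26.2 and 48.2 CPM at 24 h and was not called (edgeR adjusted p = 0.063). Dfd thus stood apart from the rest of its cluster, where the more posterior genes were low. Antp (Antennapedia) had medians of 3.92 CPM at 48 h and 10.6 CPM at 24 h and was not called, although queen 1 alone called it lower at -1.44. Ubx (Ultrabithorax) fell by 1.41 on the log2 scale to a median of 4.73 CPM at 48 h, against 11.8 CPM at 24 h, with overlapping groups. The head gene lab (labial) fell by 1.51 to a median of 0.794 CPM, against 1.93 CPM at 24 h. Abd-A had at most 12 counts and Abd-B 0 counts in any embryo and both were not tested.

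Dorsoventral genes were called in both directions. In Drosophila the Toll pathway frees the NF-kappa-B factor Dorsal from its inhibitor Cactus, and Dorsal then turns on mesodermal genes such as twist and snail. Homologs of these targets rose. Twi (twist), a bHLH factor of the mesoderm, had 325, 471 and 676 CPM at 48 h and 0, 0.339 and 0.694 CPM at 24 h, a log2 fold change of 10.10 ± 0.26 (SE; edgeR adjusted p = 1.7e-16). Snail, a zinc finger repressor of the mesoderm, rose by 6.90 ± 0.22 (SE), with 73.2, 95.7 and 116 CPM at 48 h and 0.426, 0.615 and 1.51 CPM at 24 h. The midline gene sim (single-minded) had 6.19, 13.6 and 22.3 CPM at 48 h and 0, 0 and 0.107 CPM at 24 h, at least 43-fold higher. These 3 genes were the higher ones among 14 tested, beside 6 lower ones (median -0.18).

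The 6 genes that fell included upstream members of the pathway. The inhibitor gene cact2 (cactus 2, linkage group 4, 10469737 to 10474905) had 6.22, 8.67 and 10.2 CPM at 48 h and 367, 376 and 416 CPM at 24 h, a log2 fold change of -5.50 ± 0.11 (SE; edgeR adjusted p = 1.1e-17). The related genes cact1 and cact3 fell by 1.00 and 1.39 on the log2 scale, and the call of cact1 was lost under 8 alternatives. Dl-2 (dorsal-2) had 0.448, 0.77 and 1.19 CPM at 48 h and 51.1, 58.6 and 62.9 CPM at 24 h, a log2 fold change of -6.16 ± 0.18 (SE). Its loss was not shared by Dl (gene3796), the dorsal gene itself, which had medians of 78.8 CPM at 48 h and 75.2 CPM at 24 h and was not called. The spaetzle-like gene LOC100578548, relative of the Toll ligand, fell by 4.53 and the rhomboid-like protease gene LOC726936 by 4.64. The ligand gene dpp and the gene sog of its secreted antagonist, which pattern the dorsal side, were not called, at -0.28 and 0.47.

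Beyond the axis genes, the list of bHLH, forkhead, T-box, Sox and GATA factors had 11 of 16 tested members higher (68.8%) and 2 lower (12.5%), with a median of 4.40. The list held 30 genes in the table, of which 7 never passed 3 counts. Members silent at 24 h entered the test through their 48 h counts, so that share and median hold for tested members only. Without the filter on low counts 16 were higher and 2 lower. LOC102653993 (linkage group 11, 9627927 to 9631937), a dichaete-like Sox factor, had 590, 750 and 1006 CPM at 48 h and 0, 0.143 and 0.447 CPM at 24 h. It was at least 2339-fold higher at 48 h. The related Sox gene LOC408411 (SOX-2-like) was present at both times and rose by 1.85 ± 0.18 (SE). LOC100578067, an enhancer of split mbeta-like bHLH factor of the kind that Notch signalling turns on, was switched on with a median of 45.0 CPM. It lies on linkage group 14 from 2457850 to 2486646, and its neighbour at a distance of 2028 bp, the uncharacterized gene LOC102653607, was switched on too. No other pair of adjacent genes was found among those of the 87 on placed linkage groups. Genes on unplaced scaffolds were not compared in this way.

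The remaining homeobox factors had 10 of 20 tested members higher and 3 lower, with a median of 0.92, and another 33 of their 53 genes were too low to be tested. The homeobox gene hbn (homeobrain), a head and brain factor whose product name kept it out of the list, had 159, 249 and 259 CPM at 48 h and 0 counts in every embryo at 24 h, at least 674-fold. Among zinc finger proteins the balance was even, with 18 of 86 tested members higher (20.9%) and 20 lower (23.3%). Their extremes were nevertheless wide. LOC100578920, a zinc finger protein 726-like gene, had 266, 421 and 606 CPM at 48 h and 0 counts at 24 h, at least 1277-fold. LOC100578824, a ZIC 5-like gene related to odd-paired that also counts among the pair-rule genes, had 47.6, 59.5 and 72.3 CPM at 48 h and 0 counts at 24 h, at least 179-fold. The lists of patterning genes and transcription factors together held 67 higher (35.4%) and 48 lower (25.4%) of 189 tested genes, so that their share of higher genes was not far from the 30.5% of all genes. Switched-on genes made up 12 of the 67, beside 87 of the 2685 higher genes as a whole.

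Nuclear receptors and enzymes of ecdysteroid synthesis were mostly called, with 11 of 23 higher (47.8%) and 9 lower (39.1%). The ecdysone-induced receptor gene E75 rose by 2.28 ± 0.15 (SE), with 107, 181 and 269 CPM at 48 h and 24.2, 34.6 and 50.4 CPM at 24 h. The receptor gene ftz-f1, a partner of pair-rule factors in Drosophila, rose by 1.94 ± 0.12 (SE), and CYP18A1, an enzyme that inactivates ecdysteroids, was switched on with a median of 13.3 CPM. In contrast Cyp314a1, the shade enzyme that makes the active hormone 20-hydroxyecdysone, had 9.76, 11.7 and 18 CPM at 48 h and 267, 374 and 542 CPM at 24 h. It fell by 4.93 ± 0.17 (SE) on the log2 scale with no overlap of the groups. Hr96, a receptor linked to lipid and xenobiotic metabolism, fell by 2.72 ± 0.11 (SE).

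Among transcripts present at 24 h, those of genes that repress and degrade mRNA were looked at first. Whether the RNA of these and the following genes at 24 h was maternal was not tested, since the earliest embryos were taken at that time. Of 34 such genes 32 were tested, and 14 were lower (43.8%) and 6 higher (18.8%), with a median of -0.68. The helicase gene LOC552206 (me31b ortholog, linkage group 1, 6618057 to 6622040), which represses stored mRNA in oocytes, had 192, 198 and 222 CPM at 48 h and 4315, 4587 and 4974 CPM at 24 h. It fell by 4.51 ± 0.10 (SE) on the log2 scale (edgeR adjusted p = 1.9e-17), and the embryos of each time lay close together. Dcp1, part of the enzyme that removes the mRNA cap, had 114, 130 and 140 CPM at 48 h and 762, 849 and 912 CPM at 24 h, a log2 fold change of -2.72 ± 0.08 (SE). The decapping enhancers LOC409092 (EDC3-like) and Ge-1 fell by 2.96 and 1.03, and XRN1, the exonuclease that follows decapping, fell by 1.18. The call of Ge-1 was lost under 4 alternatives, among them DESeq2 and total-count scaling, and that of XRN1 under total-count scaling and in queen 1 alone. CNOT1, the scaffold of the deadenylase complex, had 276, 284 and 373 CPM at 48 h and 950, 1131 and 1203 CPM at 24 h, a log2 fold change of -1.89. The catalytic decapping gene Dcp2 was not called, at 0.24.

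Genes that localize or repress particular maternal mRNAs fell as well. BicC (Bicaudal C) fell by 3.53 ± 0.15 (SE), to 38.4, 56.1 and 82.1 CPM at 48 h, against 524, 626 and 879 CPM at 24 h. The gene exu (exuperantia), which localizes the maternal bicoid mRNA in Drosophila, fell by 2.98 ± 0.15 (SE), and stau (staufen) by 1.29 ± 0.11 (SE). Other repressors did not pass. LOC409472 (Smaug homolog 2-like), whose fly counterpart triggers the clearance of maternal mRNA, stood just under the threshold at -0.99 and passed it under 10 alternatives, and nanos stood at -0.62.

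Against this trend 6 genes of the list rose, among them the partners of nanos in translational repression. The gene brat (brain tumor) had 797, 983 and 1118 CPM at 48 h and 118, 196 and 298 CPM at 24 h, a log2 fold change of 2.37 ± 0.16 (SE; edgeR adjusted p = 8.3e-11). The gene pum (pumilio), which binds the same targets, had between 656 and 1034 CPM at 48 h and between 228 and 432 CPM at 24 h, a log2 fold change of 1.35 ± 0.11 (SE). Both were apart between the times in all embryos. The exosome subunit genes Rrp46 and LOC411836 (RRP42-like) and the deadenylase genes LOC413177 (CCR4-NOT subunit 6-like) and LOC724505 (a subunit of the PAB-dependent ribonuclease) made up the rest.

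No gene of the germ plasm and piRNA list rose, and 7 of 11 tested fell (63.6%), with a median of -2.74. The piRNA pathway silences transposons in the germline. The piRNA factor gene mael (maelstrom, linkage group 8, 9668509 to 9676227) had 510, 970 and 1325 CPM at 48 h and 12677, 14293 and 16585 CPM at 24 h. Its log2 fold change was -3.94 ± 0.19 (SE; edgeR adjusted p = 9.1e-13). The germ cell helicase gene vas (vasa, linkage group 1, 28622369 to 28626061) had 80, 116 and 146 CPM at 48 h and 1912, 1946 and 2128 CPM at 24 h, a log2 fold change of -4.14 ± 0.12 (SE). Both have an opposite-strand partner. LOC100576828 (maelstrom 2-like) has no such partner and fell by 2.74 ± 0.23 (SE). The summed RPKM of the list lay between 307 and 565 at 48 h and between 5465 and 6995 at 24 h, so that the groups were far apart.

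Meiosis and oocyte maturation had the same one-sided outcome, with 7 of 13 tested genes lower (53.8%), none higher and a median of -1.5. With total-count scaling, and without the filter on low counts, 1 gene of the list was higher. LOC100576086, a homolog of the meiotic cohesin REC8, had 4.31, 5.22 and 8.06 CPM at 48 h and 66.1, 74.3 and 91.1 CPM at 24 h, a log2 fold change of -3.77 ± 0.15 (SE). CycB3 (cyclin B3), which drives meiotic anaphase, had 106, 119 and 131 CPM at 48 h and 612, 720 and 915 CPM at 24 h, a log2 fold change of -2.63 ± 0.09 (SE). The dynein adaptor gene BicD, which carries mRNA and organelles in the oocyte, was the median gene of the list.

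**Figure D3:**
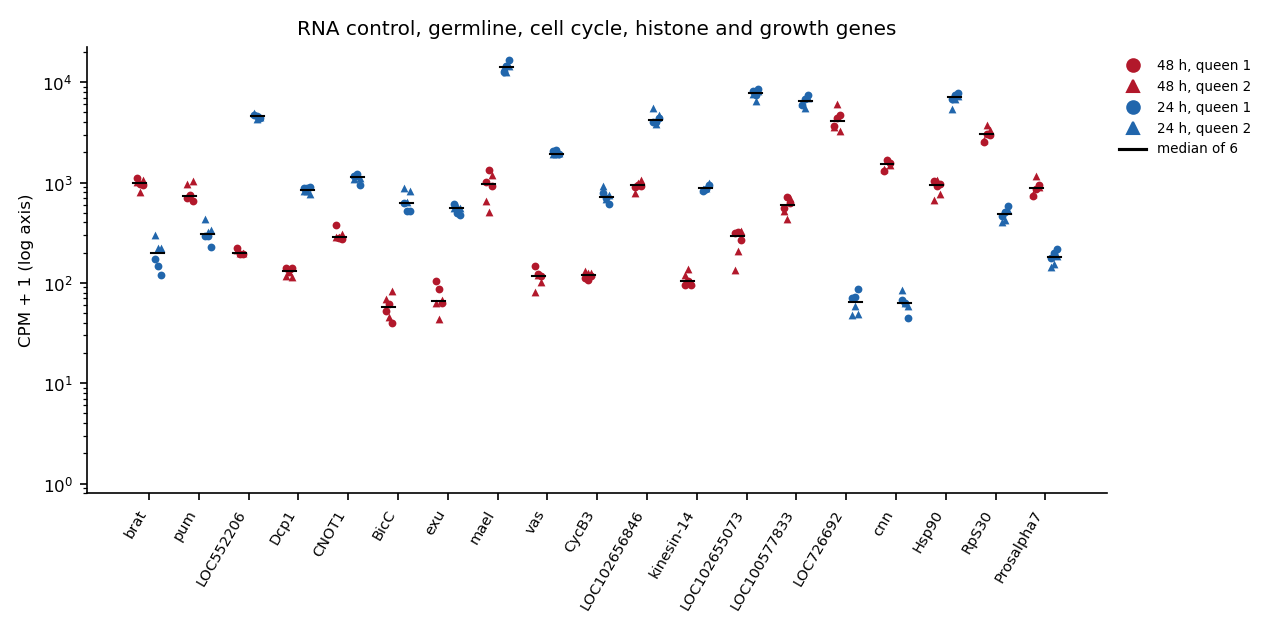
CPM plus 1 on a log axis in each of the 12 female embryos for 19 genes of RNA control, germline, cell cycle, histones and growth, with 48 h in red to the left of 24 h in blue, circles for queen 1, triangles for queen 2 and a black bar at the median of 6 embryos. The genes brat, pum, LOC726692, cnn, RpS30 and Prosalpha7 lie higher at 48 h and the other 13 lower, with no overlap of the groups in any of the 19.

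Among genes with a described product and at least 10 CPM at a time, the 12 steepest falls included those of several enzymes and of a water channel. LOC726585, a fatty acid 2-hydroxylase-like gene of sphingolipid synthesis, had 0.336, 0.938 and 1.92 CPM at 48 h and 165, 188 and 223 CPM at 24 h, a log2 fold change of -7.63 ± 0.19 (SE; edgeR adjusted p = 1.1e-16). LOC100577235, a SMYD4-like gene with a SET domain, was more abundant to begin with. It had 6.72, 8.36 and 9.7 CPM at 48 h and 1273, 1354 and 1655 CPM at 24 h, a log2 fold change of -7.40 ± 0.13 (SE). The gene tj (traffic jam), a Maf factor of somatic gonad cells, had 0, 1.27 and 1.56 CPM at 48 h and 106, 126 and 152 CPM at 24 h, a log2 fold change of -6.87 ± 0.24 (SE). The 12 also held LOC726969 (farnesyl pyrophosphate synthase-like) at -7.39, LOC551180 (aminopeptidase N-like) at -7.21, the aquaporin gene LOC726136 at -7.11 and the glucuronosyltransferase genes LOC409203 and LOC727593 at -7.14 and -6.86. A call in each queen and groups without overlap were conditions for naming these 12.

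Cell cycle and spindle genes mostly went down, with 39 of 90 tested members lower (43.3%) and 14 higher (15.6%), and a median of -0.75. The cyclin A-like gene LOC102656846, a driver of mitotic entry, had 783, 935 and 1050 CPM at 48 h and 3793, 4229 and 5494 CPM at 24 h, a log2 fold change of -2.24 ± 0.11 (SE). Kinesins, the motors that move along microtubules, were looked at as a family after their values were seen. Of 24 tested kinesin genes 16 were lower and 2 higher, with a median of -1.62. The spindle motor gene kinesin-14 had 93.3, 103 and 137 CPM at 48 h and 830, 876 and 997 CPM at 24 h, a log2 fold change of -3.05 ± 0.10 (SE). An exception in the cell cycle list was cnn (centrosomin), a scaffold of the centrosome, with 1306, 1537 and 1663 CPM at 48 h and 43.7, 62 and 83.3 CPM at 24 h. It rose by 4.60 ± 0.14 (SE), and its locus holds an opposite-strand gene as well. DNA replication and repair genes were also lower more often than higher, with 24 of 73 tested members lower (32.9%) and 7 higher (9.59%).

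Histones, the proteins that package DNA, changed in both directions. In this family, also chosen after values were seen, 10 of 21 tested genes were lower and 4 higher, with a median of -0.82. The histone H4-like gene LOC102655073 (linkage group 1, 17326269 to 17326708) had 133, 289 and 331 CPM at 48 h and 6537, 7850 and 8629 CPM at 24 h, a log2 fold change of -4.90 ± 0.19 (SE). At 24 h it was the histone gene with the highest level per length, at a mean of 13047 RPKM, against 390 RPKM at 48 h. The nearby linker histone H1-like gene LOC100577833 had 434, 594 and 711 CPM at 48 h and 5569, 6520 and 7427 CPM at 24 h, a log2 fold change of -3.46 ± 0.13 (SE). The variant gene His2Av fell by 2.37. Opposite to these, LOC726692 (linkage group 14, 5907651 to 5909822), which encodes the replacement histone H3.3-like, had 3301, 4067 and 6099 CPM at 48 h and 46.3, 63.2 and 85.1 CPM at 24 h. It rose by 6.12 ± 0.19 (SE; edgeR adjusted p = 1.5e-15). Another H3.3-like gene, LOC552116, was not called at -0.23, with means of 107 CPM at 48 h and 125 CPM at 24 h. Only reads with a single alignment were kept and histone genes have near-identical copies, so that values of single histone genes are uncertain.

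The machinery of transcription was called higher more often than lower. Of 83 tested genes for RNA polymerases, Mediator and general factors 40 were higher (48.2%) and 7 lower (8.43%), with a median of 0.88. LOC410004, a TFIID subunit 10-like gene of the complex that binds core promoters, had 930, 1035 and 1181 CPM at 48 h and 76.9, 88.8 and 99.8 CPM at 24 h, a log2 fold change of 3.55 ± 0.10 (SE). Among the polymerase subunits themselves, taken as a family after values were seen, 13 of 20 were higher and 1 lower. The RNA polymerase II subunit gene Rpb11 rose by 3.29 ± 0.11 (SE), and RPC5 of RNA polymerase III fell by 1.58. Mediator subunit genes MED22 and MED18 fell by 1.54 and 1.52, so that the rise was not shared by every subunit.

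Splicing had 27 of 70 tested genes higher (38.6%) and 1 lower, a call that upper-quartile and total-count scaling removed. Ribosome biogenesis had 14 of 56 higher (25%), a smaller share than the 30.5% of all tested genes, and 1 lower. The LSm4-like gene LOC552529, part of the ring that binds U6 RNA, rose by 3.20 ± 0.11 (SE), with medians of 166 CPM at 48 h and 19.2 CPM at 24 h. Of 76 tested genes for cytosolic ribosomal proteins 47 were higher (61.8%) and none lower, with a median of 1.63. In queen 1 alone 1 of them was lower. RpS30 had 2548, 3014 and 3768 CPM at 48 h and 400, 484 and 587 CPM at 24 h, a log2 fold change of 2.66 ± 0.12 (SE). All ribosomal protein genes together held 4.57% to 6.53% of the counts at 48 h and 1.55% to 2.03% at 24 h.

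Degradation and energy supply had a similar balance. The proteasome, which destroys tagged proteins, had 19 of 36 tested genes higher (52.8%) and 1 lower, with a median of 1.23. The subunit gene Prosalpha7 had 730, 880 and 1161 CPM at 48 h and 143, 181 and 218 CPM at 24 h, a log2 fold change of 2.33 ± 0.13 (SE). The lower gene was Pros29, with 249, 269 and 333 CPM at 48 h and 872, 908 and 954 CPM at 24 h, a log2 fold change of -1.69 ± 0.09 (SE). Oxidative phosphorylation, the respiratory chain of mitochondria, had 30 of 68 tested genes higher (44.1%) and 6 lower (8.82%), with a median of 0.88. The 3 protein-coding genes of the mitochondrial genome in the table all rose, ND2 by 2.46 ± 0.16 (SE). Genes of mitochondrial ribosomes did not follow, with 3 of 15 higher and 1 lower.

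Carbohydrate metabolism went down, with 29 of 57 tested genes lower (50.9%) and 13 higher (22.8%), and a median of -1.16. The glycolytic genes LOC552736 (phosphoglycerate mutase) and LOC552007 (pyruvate kinase) fell by 2.37 ± 0.13 and 1.66 ± 0.10 (SE). Pdk, the kinase that holds back the entry of pyruvate into the citric acid cycle, rose by 2.72 ± 0.10 (SE), with 893, 943 and 1221 CPM at 48 h and 129, 145 and 203 CPM at 24 h. In lipid metabolism 47 of 126 tested genes were lower (37.3%) and 32 higher (25.4%). Lsd-1, a coat protein of lipid droplets in which the egg stores fat, fell by 2.14 ± 0.09 (SE). Heat shock proteins and chaperones had 15 of 53 lower (28.3%) and 11 higher (20.8%), beside 26.8% and 30.5% of all tested genes. Their share of lower genes was thus near that of all genes. Hsp90, a chaperone for kinases and receptors, was the most abundant of those that fell, with 676, 946 and 1058 CPM at 48 h and 5380, 7069 and 7754 CPM at 24 h, a log2 fold change of -2.94 ± 0.12 (SE).

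**Figure D4:**
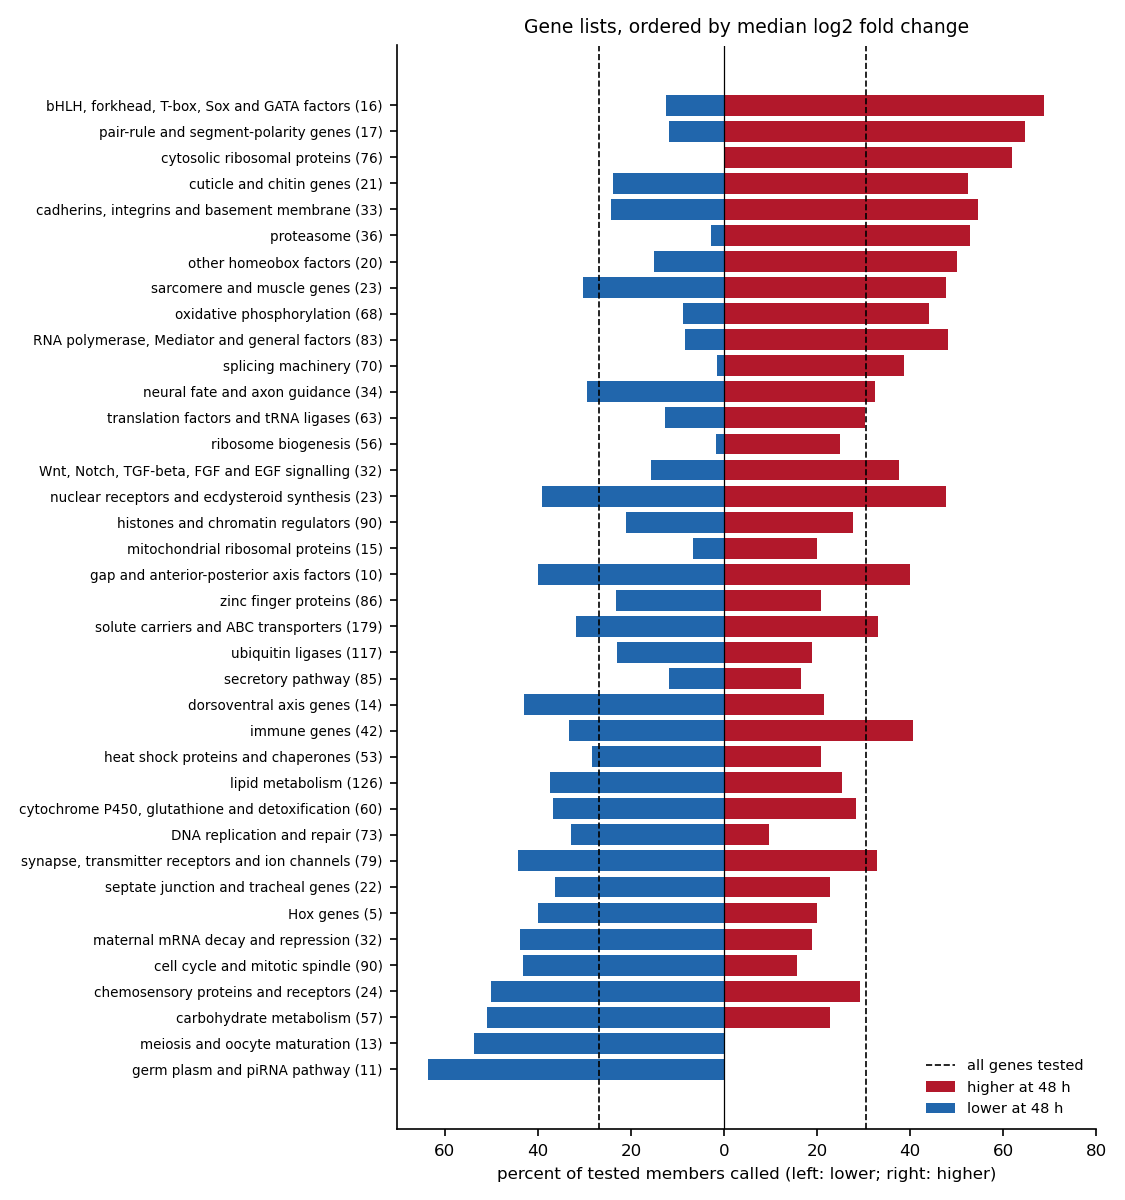
Percent of the tested members of each of the 38 gene lists that were higher (red, to the right) and lower (blue, to the left) at 48 h than at 24 h, ordered by the median log2 fold change of the list, with the number tested in parentheses and dashed lines at the 30.5% and 26.8% of all tested genes. Transcription factors of the bHLH and related classes, pair-rule genes and ribosomal proteins lead the upper end, and germ plasm, meiosis and carbohydrate metabolism stand at the lower end.

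At the cell surface, genes for cadherins, integrins and basement membrane had 18 of 33 tested members higher (54.5%) and 8 lower (24.2%), with a median of 1.40. Fas1 (fasciclin 1), an adhesion protein of axons and epithelia, had 542, 597 and 705 CPM at 48 h and 0, 0.103 and 0.548 CPM at 24 h, a log2 fold change of 11.39 ± 0.22 (SE; edgeR adjusted p = 8.3e-18). The adherens junction gene LOC410585 (DE-cadherin) was present at both times and rose by 1.40 ± 0.12 (SE). BM-40-SPARC, a collagen-binding protein of basement membranes, fell by 3.55 ± 0.15 (SE). Among signalling genes 12 of 32 were higher (37.5%) and 5 lower (15.6%). The aquaporin-like Notch pathway gene bib (big brain) rose by 4.25 ± 0.33 (SE), with a single embryo at 577 CPM and the median at 144 CPM at 48 h, while the Notch ligand gene Ser (Serrate) fell by 3.28 ± 0.18 (SE).

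Cuticle and chitin genes, which build the outer covering of the larva, had 11 of 21 tested members higher (52.4%) and 5 lower, and 40 of the 61 in the table were too low to be tested. Without the filter on low counts 31 were higher and 6 lower, so that the share of 52.4% holds for tested members only. CPF1, a cuticular protein, had 265, 418 and 462 CPM at 48 h and 0.685, 1.74 and 2.28 CPM at 24 h, a log2 fold change of 7.81 ± 0.21 (SE). Some cuticle genes were lost, CPR13 by 5.33 ± 0.17 (SE). TyHyd (tyrosine hydroxylase) starts the synthesis of compounds that harden and darken cuticle and also of dopamine. It is not in the cuticle list but served as a marker of serosa and yolk cells. TyHyd had 17.5, 28.3 and 58.9 CPM at 48 h and 0, 0 and 0.0895 CPM at 24 h, at least 95.4-fold. Of the other markers of these cells, LOC410639 (aromatic-L-amino-acid decarboxylase-like) was lower at -2.08. Ddc (dopa decarboxylase) had at most 10 counts in any embryo and was not tested. Sarcomere and muscle genes had 11 of 23 higher (47.8%) and 7 lower, with Actn (alpha actinin) up by 1.85 ± 0.09 (SE) and the flightin-like gene LOC725364 of flight muscle down by 4.33 ± 0.27 (SE).

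Solute carriers and ABC transporters had 59 of 179 tested genes higher (33%) and 57 lower (31.8%), close to the share of all genes. The transporter LOC409666 (ABC transporter G family member 20-like, linkage group 15, 6320377 to 6356193) had 445, 1011 and 1071 CPM at 48 h and 0, 0 and 0.17 CPM at 24 h, which is at least 2640-fold and the largest bound among the 87 switched-on genes. An opposite-strand gene lies in its locus. Taken as a family after values were seen, ABC transporters of class G, which export lipids and pigment precursors, had 5 of 9 tested genes higher and 1 lower. Of these, LOC550941, LOC413844 and LOC726513 were switched on too, at bounds of 178-fold, 75.1-fold and 72.5-fold. The monocarboxylate transporter 12-like gene LOC551263 rose by 9.10 ± 0.18 (SE), with 392, 460 and 546 CPM at 48 h and 0.411, 0.794 and 1.17 CPM at 24 h.

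Genes named for later life stages were also found among the activated ones. CSP3 (chemosensory protein 3), a small carrier of hydrophobic ligands, had 151, 171 and 202 CPM at 48 h and 0 counts at 24 h, at least 519-fold. The serine protease genes SP7 and SP25 were switched on at bounds of 342-fold and 565-fold, and the scavenger receptor gene SCR-B10 at 209-fold. Immune genes, to which these proteases and the receptor belong, had 17 of 42 tested members higher (40.5%) and 14 lower (33.3%). The opsin gene Uvop, whose product detects ultraviolet light in the eye, was switched on with a median of 35.6 CPM. Chemosensory genes as a list had 12 of 24 tested members lower (50%) and 7 higher, and 57 of the 132 in the table never passed 3 counts in any of the 12 embryos. Without the filter on low counts the balance turned, with 48 higher and 21 lower.

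Neural genes were divided. Synapse, transmitter receptor and ion channel genes had 35 of 79 tested members lower (44.3%) and 26 higher (32.9%), with a median of -0.49. Without the filter on low counts 47 were higher and 37 lower. The nicotinic acetylcholine receptors, the main excitatory receptors of the insect brain, were looked at as a family after values were seen. Of 11 such genes 7 were tested, and 6 of these rose and 1 fell. Subunits low at 24 h entered the test through their 48 h counts, so that this split holds for tested members only. The subunit gene nAChRa9 rose by 4.48, with 15.5 ± 4.42 CPM at 48 h and 0.66 ± 0.225 CPM at 24 h (SD, n = 6 each). The subunit gene nAChRb2 rose by 4.99, with 10.9 ± 3.20 CPM at 48 h and 0.313 ± 0.0655 CPM at 24 h. The subunit gene nAChRa3 had 2.35, 2.92 and 8.5 CPM at 48 h and 170, 185 and 222 CPM at 24 h, a log2 fold change of -5.62 ± 0.22 (SE; edgeR adjusted p = 2.7e-14). The neuropeptide gene NPF rose by 5.50 ± 0.20 (SE), to 144, 168 and 206 CPM at 48 h, against 1.64, 3.38 and 6.26 CPM at 24 h. Neural fate and axon guidance genes were near balance, with 11 of 34 higher (32.4%) and 10 lower (29.4%), close to the shares of all genes.

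Among tested genes, long noncoding RNA genes were called more often than protein-coding ones. Of 745 tested lncRNA genes 338 were higher (45.4%) and 262 lower (35.2%), beside 2279 higher (29.2%) and 2033 lower (26%) of 7809 protein-coding genes. The filter on low counts kept these 745 of 2061 lncRNA genes, and 7809 of 9888 protein-coding genes. At most 3 counts in every embryo were found for 515 lncRNA and 869 protein-coding genes. Genes silent at either time entered the test through their counts at the other time, so that these shares hold for tested genes only. Whether the filter accounts for the difference between the gene types was not tested. LOC102654991, an lncRNA gene with an opposite-strand partner, had 173, 271 and 402 CPM at 48 h and 0 counts at 24 h, at least 825-fold. Ks-1, a nuclear noncoding RNA first described in the honeybee brain, was switched on with a median of 116 CPM at 48 h and at most 1 count in any embryo of 24 h. In the other direction LOC100576535 had 0, 0.144 and 0.298 CPM at 48 h and 36.3, 37.2 and 41 CPM at 24 h, at least 81.6-fold lower. A gene on the opposite strand overlapped 52.9% of the tested lncRNA genes, against 32.6% of the protein-coding ones. Among genes named above, LOC100578824, ftz-f1, Hr96, pum, XRN1, REC8, Rpb11, MED18, Fas1, bib, SCR-B10 and Uvop are of this kind, as are LOC726585, LOC100577235, LOC551180 and both glucuronosyltransferase genes. All lncRNA genes together held 1.88% to 2.33% of the counts at 48 h and 2.94% to 5.47% at 24 h. Their summed RPKM went the other way, at 19362 to 25731 at 48 h and 11561 to 15446 at 24 h. The direction of their total therefore depended on the measure.

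The span of the genes was set beside the direction of the change. Median genomic span was 4072 bp in higher, 4926 bp in lower and 3579 bp in uncalled protein-coding genes, against 4011 bp over all tested ones. It was 7616 bp in the 68 protein-coding genes that were switched on. In the fifth of protein-coding genes with the shortest span, under 1928 bp, 34.5% were higher and 18.2% lower. In the fifth with the longest span, from 12590 bp, 33.7% were higher and 33.0% lower. The called genes were spread over the genome. In 17 linkage groups, the unplaced scaffolds counted as 1 of them, 26.7% to 34.8% of tested genes were higher and 22.9% to 33.1% lower.

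The same interval in the 12 male embryos of these queens was set beside the female one. Male libraries held 3222023 to 7572141 counts at 48 h and 7612765 to 12808580 at 24 h, and the part of depth in the differences was not tested. The female and male steps differed at an edgeR adjusted p-value under 0.05 in 6757 of 9023 genes tested over both sexes (74.9%). The female-higher genes had a male median of 0.20 on the log2 scale, and the female-lower genes one of -0.02. Among genes present at 24 h, Kr rose by 5.80 in females, against 0.39 in males, a difference of 5.41 (edgeR adjusted p = 1.4e-14). The me31b ortholog LOC552206 stood at -4.51 in females and -0.38 in males, with a difference of -4.12 (edgeR adjusted p = 2.1e-18). BicC, exu and mael were higher in 48 h than in 24 h males, at 1.99, 0.61 and 0.84, with differences of -5.52, -3.59 and -4.78. The histone H4-like gene LOC102655073 changed by 0.12 in males, with a difference of -5.01 (edgeR adjusted p = 4.4e-16).

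Some genes moved in both sexes. Pros29 fell by 1.69 in females and by 1.68 in males, with a difference of -0.01 (edgeR adjusted p = 0.97), and the difference for cad was -0.34 (edgeR adjusted p = 0.21) and for pum 0.47 (edgeR adjusted p = 0.16). Knr and Ubx fell in females and rose in males by 2.13 and 2.07, with differences of -4.74 and -3.44. By list, the median of the germ plasm and piRNA genes was -0.19 in males and that of the pair-rule genes 0.01.

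**Figure D5:**
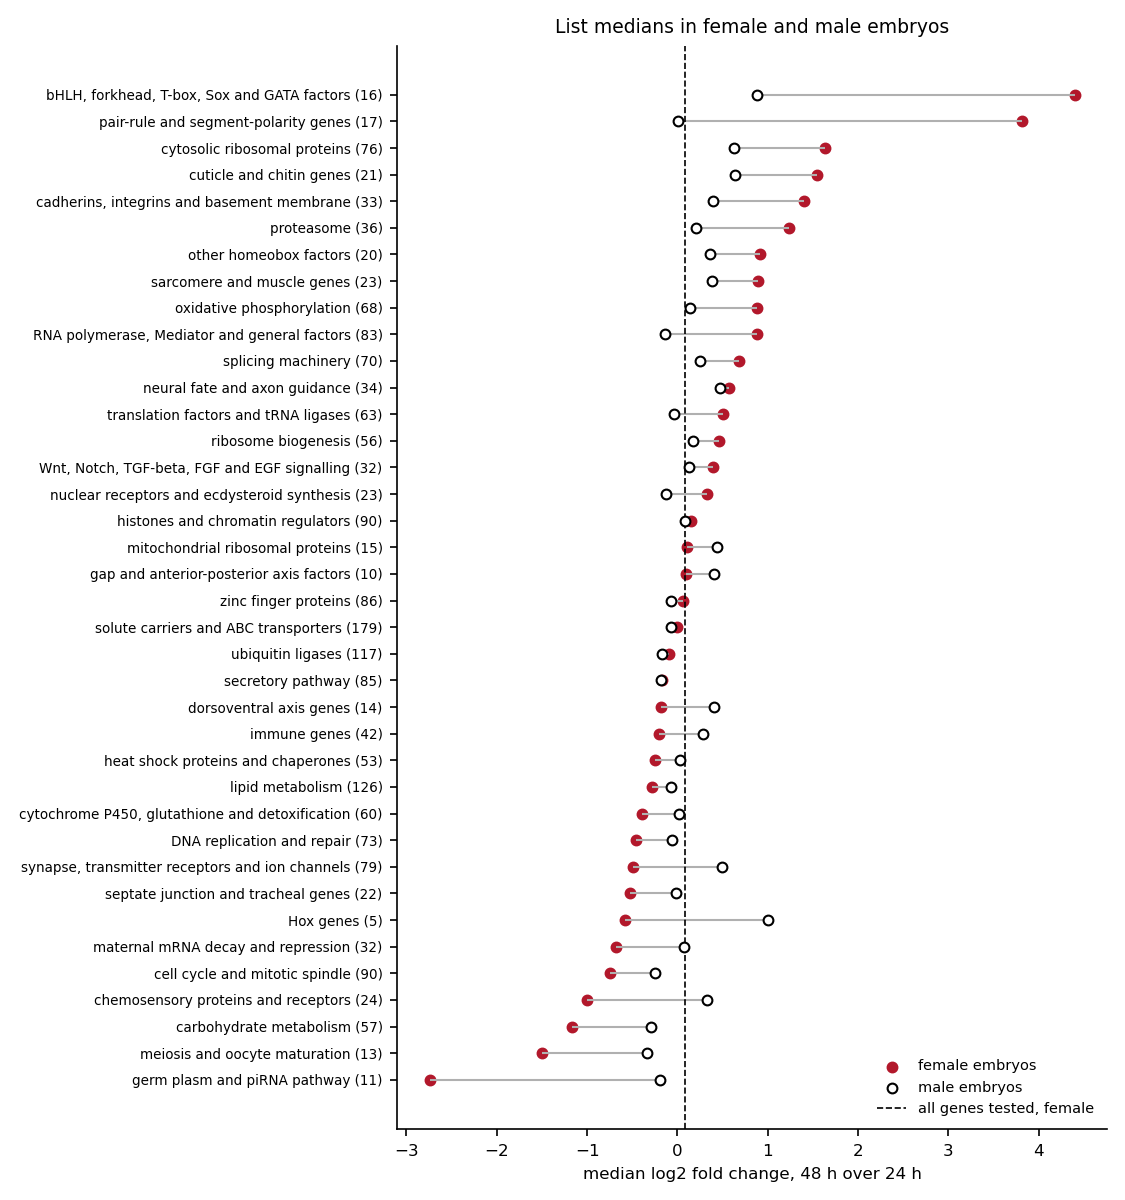
Median log2 fold change of 48 h over 24 h in female (red) and male (open circles) embryos for each of the 38 gene lists, with the number of tested members in parentheses and a dashed line at the female median of all tested genes. The female medians run from -2.74 for germ plasm and piRNA genes to 4.40 for bHLH and related factors, while the male medians stay between -0.34 for meiosis and oocyte maturation and 1.00 for the 5 Hox genes.

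The step was also compared between the 2 queens. A queen by time interaction passed the edgeR adjusted p-value of 0.05 in 2 of 8799 genes (0.0227%), while 1064 genes (12.1%) had an unadjusted p-value under 0.05. The most abundant gene at both times, the uncharacterized LOC100578903 on linkage group 5, was not called, with a mean of 29818 RPKM at 48 h and 19627 RPKM at 24 h and a log2 fold change of 0.77 ± 0.13 (SE), under the threshold of 1. Its locus, too, holds an opposite-strand gene.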

How the data were processed

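The authors made cDNA from single embryos with the SMART-Seq v4 kit, amplified it by PCR and transcribed it before library construction, so that amplification precedes counting. The part of poly(A) tail length in the counts was not tested. They demultiplexed with bcl2fastq 2.16.0.10, trimmed reads to 65 bp, aligned them to the honeybee genome with TopHat2 (both tools per the labels) and discarded reads that aligned more than once. The counting tool and its use of strand are not given in the sources used here. The authors deposited counts per gene and RPKM values for 12365 genes on build Amel_4.5, with the annotation that supplied products and coordinates. Counts were used for tests and CPM, RPKM only for levels between genes.

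Genes passing filterByExpr of edgeR 4.0.16 (minimum count 10, minimum total 15) were fitted in R 4.3.3 with TMM factors, time and queen, and tested by quasi-likelihood, with p-values adjusted by Benjamini-Hochberg. The fit was tested on simulated data, in which far fewer genes changed than were called here. That test therefore does not cover a change as widespread as this one. Interactions of queen and time used the same 12 embryos, and interactions of sex and time 24. Floors of 3 counts cover counting error only, as reads carry no molecular identifiers. Alternatives were upper-quartile and total-count scaling, DESeq2 1.42.0, other filters, thresholds and sample sets, and leaving out each embryo.

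The members and the 38 gene lists, matched by words of the product, were chosen with earlier results of these data known. A gene whose product matched by accident was removed from each of 2 lists (synapse and other homeobox) after values were seen. Named genes are the 12 highest and 12 lowest with a described product called in both queens without overlap and at 10 CPM or more, up to 3 per list and direction by RPKM, the 5 most abundant per time, 2 lncRNA genes per direction and the members of the mRNA decay and axis lists. Switched-on genes, family members and neighbours outside that rule were chosen after their values were seen. No 2 of the libraries were identical. Promoter and protein sequences were not used here.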

Additional observations from a re-analysis of the deposited data

Results flagged for a closer look

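Over 63 checks of 6 embryos each, 4 values stood apart from the other 5 of their group, and chance alone sets apart about 1 in 20 groups. LOC102655523, a transmembrane protein 218-like gene that was switched on, had 46.6 CPM in embryo 8 of queen 1 at 48 h, while the other embryos had 54.5 to 58.6 CPM. The uncharacterized gene LOC102655058 had 1030 CPM in embryo 35 of queen 2 at 24 h, against 1470 to 1710 CPM in the others. Embryo 15 of queen 1 at 48 h had a total of 7944906 counts, against 5503556 to 6308504 in the others of that time. The TMM factor of embryo 35 of queen 2 at 24 h was 0.89, and those of the others were 0.9343 to 0.9499.

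The step differed between the queens for 2 genes by the edgeR interaction test. LOC727479, a zinc transporter 1-like gene, had an interaction of 5.74 ± 0.86 (SE) on the log2 scale (edgeR adjusted p = 0.0173), since it was higher at 48 h by 1.77 in queen 1 and by 7.47 in queen 2. Its 48 h embryos had 5.88, 8.74 and 6.19 CPM in queen 1 and 9.74, 12.7 and 9.72 CPM in queen 2. Its 24 h embryos had 1.39, 1.36 and 3.22 CPM in queen 1 and 0, 0.107 and 0 CPM in queen 2, so that the queens lay apart at the earlier time. LOC724225, a myosuppressin receptor gene, had an interaction of 2.56 ± 0.36 (SE; edgeR adjusted p = 0.0125), with -3.33 in queen 1 and -0.76 in queen 2. Its 48 h embryos had 8.23, 4.54 and 4.76 CPM in queen 1 and 20.6, 25.4 and 18.2 CPM in queen 2. Its 24 h embryos had 79.5, 39.7 and 53.5 CPM in queen 1 and 33.7, 36.2 and 38.7 CPM in queen 2. Neither gene reached the threshold in every subset of embryos, since leaving out embryo 32, 34 or 35 of queen 2 at 24 h left 0 genes with an interaction.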

How the results depend on the processing

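The counts of 2685 higher and 2360 lower genes ran from 2678 to 3997 and from 2072 to 2713 over the alternatives, and from 2698 to 2830 and from 2378 to 2436 when single embryos were left out. Of 6314 values of named genes, none changed sign, 92 lost and 16 gained the call, and 230 of 261 called genes kept it under every alternative. Of the called genes 53.2% were higher, 59.3% with total counts and 59.6% without a filter, which moved the median change over the tested genes (log2) to 0.28 and 0.39. Of 1672 list counts 37 moved by over 1.5 times. Switched-on genes numbered 87, but 132 in queen 2 only and 156 at a minimum of 5 CPM, and 88 to 94 without single embryos. Switched-off genes numbered 6, but 14 in queen 1 only, 18 in queen 2 only and 14 at 5 CPM, and 6 to 10 without single embryos, the highest without 48 h embryo 29. Looser rules or fewer embryos admit more genes by construction. The 2 genes with a queen by time interaction became 4 with total counts, 80 with DESeq2, 15 without a filter, 5 with a filter of 1 CPM in 6 embryos and 298 at an unadjusted p under 0.01. They became 0 to 55 without single embryos, 0 without 24 h embryo 32, 34 or 35 and 55 without 48 h embryo 29, and the cause was not tested. Sex by time interactions stayed between 5759 and 7084 genes. At these depths a level under the floor of 3 counts could not be seen. No paired analysis was possible, because each library was made from a different single embryo.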
